A study of Mus musculus with 4 samples.

Results

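Irak3 and its partners in the IRAK-MyD88 pathway were followed in invariant natural killer T (iNKT) cells of CD4-Vα14Tg and wild-type (WT) mice. The set held 7 genes, Irak1, Irak2, Irak3, Irak4, Myd88, Tollip and Traf6, and 6 of them had a probe set named with that symbol alone, 1 probe set each, among 22180 named genes on the array. Irak4 had no such probe set and was not analysed here. Irak3 was chosen by its large rise from WT to CD4-Vα14Tg on these same arrays, so its values are given as a description with no test. The other genes were included as parts of the pathway, with earlier results of these data known. CD4-Vα14Tg mice carry a rearranged Vα14 T cell receptor (TCR) α chain under the CD4 promoter, and the WT arrays served as controls without it. Each genotype was measured on 2 Affymetrix arrays, and the study's title places the comparison in the question of how TCR density acts on iNKT selection and subset fate. The labels used here give no strain background, age, sex, organ, sorting gate or pooling of mice. They do not say whether the arrays of a genotype came from separate mice, so the p-values measure only the spread between these arrays.

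The receptors for bacterial products (Toll-like receptors) and for interleukin-1 (IL-1), IL-18 and IL-33 share an intracellular TIR domain that recruits the adaptor MyD88. MyD88 gathers the kinase IRAK4, which activates IRAK1 and IRAK2, and these engage the ubiquitin ligase TRAF6, from which TAK1 and the IKK complex lead to NF-kB. IRAK3, also called IRAK-M, is regarded as an inactive kinase and is best known in monocytes and macrophages as a brake that limits signalling after repeated stimulation. In iNKT cells the pathway is known chiefly through IL-18, which with IL-12 drives interferon-γ, and IL-1, which supports the IL-17-producing subset.

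Irak3 was the member with the large difference. Its log2 expression was 8.44 and 8.27 on the CD4-Vα14Tg arrays, replicates 1 and 2, and 5.68 and 5.82 on the WT arrays. Both CD4-Vα14Tg arrays lay far above both WT arrays, and the arrays within a genotype were close together. The means were 8.35 ± 0.12 against 5.75 ± 0.10 (SD, n = 2 arrays each), a log2 difference of 2.61, or 6.09-fold. Irak3 lay above the 40th percentile of named probe sets (4.65 to 4.69) on all 4 arrays, WT included. Of the 13602 genes that passed this expression filter, 0 had a larger rise and 7 had a larger difference in either direction. When each array was left out in turn, the difference ran from 2.52 to 2.69.

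**Figure D1:**
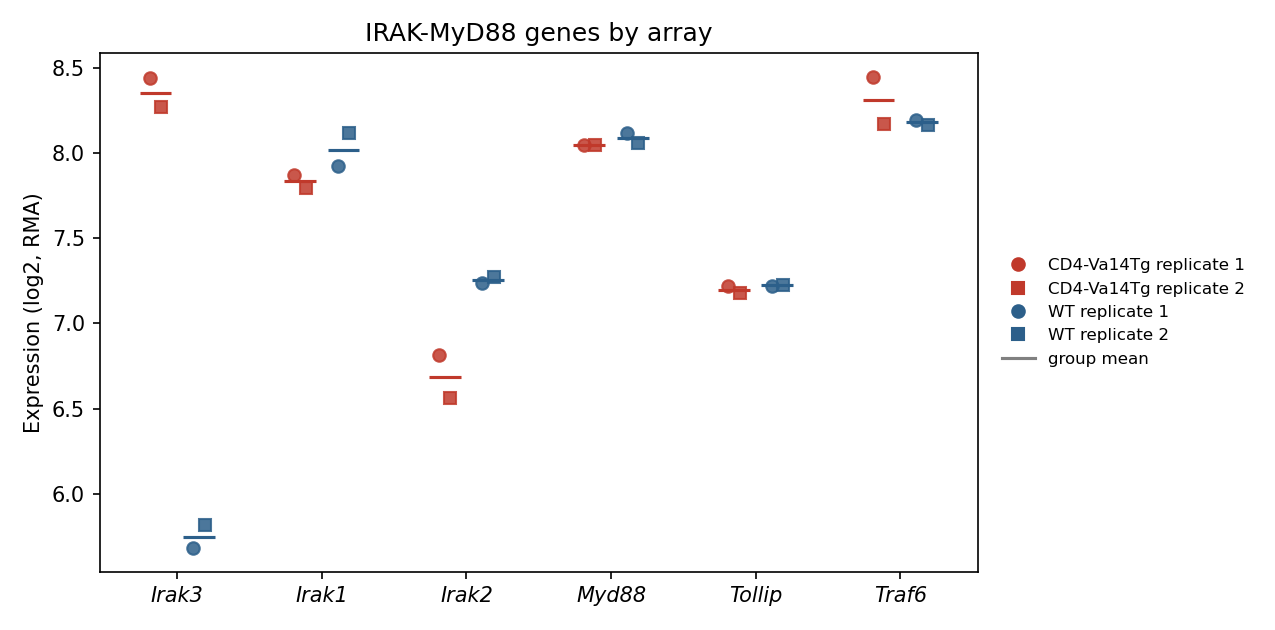
Log2 expression of the 6 measured IRAK-MyD88 genes on each of the 4 arrays, with red for CD4-Vα14Tg, blue for WT, circles for replicate 1, squares for replicate 2 and a line for each group mean. Irak3 separates by 2.61 between the means, Irak2 lies lower on both CD4-Vα14Tg arrays, and Myd88 and Tollip lie almost at the same value on all 4.

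Irak3 has 2 RefSeq start sites in assembly GRCm38.p6, and the 250 bases before each are shown with the same stretch of Irak2, the IRAK gene with the next largest difference, which was negative. Sequences run 5′ to 3′ on the gene's strand, and capitals mark a match to the NF-kB pattern GGGNNNNNCC on either strand.
Irak3, upstream of the start nearer the gene's 3′ end (chr10:120201598-120201847, minus strand): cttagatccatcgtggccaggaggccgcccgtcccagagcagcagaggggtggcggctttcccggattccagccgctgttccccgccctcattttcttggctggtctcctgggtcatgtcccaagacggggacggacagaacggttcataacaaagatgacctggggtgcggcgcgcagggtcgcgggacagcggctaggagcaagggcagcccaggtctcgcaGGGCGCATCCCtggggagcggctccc
Irak3, upstream of the farther start (chr10:120202131-120202380, minus strand): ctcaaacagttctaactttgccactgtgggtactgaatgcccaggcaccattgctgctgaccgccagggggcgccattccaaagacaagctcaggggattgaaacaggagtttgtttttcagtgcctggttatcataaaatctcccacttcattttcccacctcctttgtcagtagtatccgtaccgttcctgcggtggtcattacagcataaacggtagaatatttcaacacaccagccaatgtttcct
Irak2 (chr6:113638217-113638466, plus strand): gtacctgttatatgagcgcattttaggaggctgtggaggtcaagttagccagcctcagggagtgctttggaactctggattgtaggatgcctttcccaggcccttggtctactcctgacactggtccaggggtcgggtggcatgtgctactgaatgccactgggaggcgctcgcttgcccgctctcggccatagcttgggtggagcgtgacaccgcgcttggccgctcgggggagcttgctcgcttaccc
The first Irak3 stretch held the NF-kB pattern on both strands in the overlapping run GGGCGCATCCC, which ends 16 bases before the start, and the other Irak3 stretch and the Irak2 stretch held none. This pattern is common: 45.8% of 32851 RefSeq windows of that length held it. Patterns for AP-1 (TGANTCA, in 6.75% of windows), TCF/LEF (CTTTGA, 13.8%) and Runx (TGTGGT, 14.0%), searched on both strands, were in none of the 3 stretches. The first Irak3 stretch had a GC content of 66.4% with 19 CpG pairs and the other 47.6% with 6, against a median of 52.4% and 6 over all windows. The array does not tell transcripts of the 2 starts apart, and factor binding was not measured.

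Among the other kinases of the family, Irak2 had the largest difference. Irak2, the kinase that sustains late signalling through TRAF6, read 6.81 and 6.56 on the CD4-Vα14Tg arrays and 7.24 and 7.27 on the WT arrays. The genotypes did not overlap. The log2 difference was -0.57 (95% interval -0.88 to -0.26) and did not pass after adjustment (limma adjusted p = 0.104). Irak1, the kinase that acts with IRAK4 in the early phase, read 7.87 and 7.80 against 7.92 and 8.12. Its difference of -0.19 had an interval from -0.48 to 0.11 (limma adjusted p = 0.691), which covers both a small fall and a small rise.

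The adaptor and the proteins next to the kinases showed small differences. Myd88, the adaptor itself, read 8.05 on both CD4-Vα14Tg arrays and 8.12 and 8.06 on the WT arrays, a log2 difference of -0.041 (interval -0.31 to 0.23, limma adjusted p = 0.967). Tollip, an IRAK1-binding protein that restrains the pathway, read 7.22 and 7.18 against 7.22 and 7.23, with a log2 difference of -0.026 (interval -0.29 to 0.24, limma adjusted p = 0.983). For Myd88 and Tollip the sign of so small a difference turned when arrays were centred on their medians. Traf6, the ubiquitin ligase, read 8.45 and 8.17 against 8.20 and 8.17, and the genotypes overlapped. Its log2 difference of 0.13 (interval -0.19 to 0.45, limma adjusted p = 0.848) rested on CD4-Vα14Tg replicate 1 and was -0.0095 without that array.

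Of the 5 measured members other than Irak3, 0 were called by limma (adjusted p under 0.05) and 0 with its trend and robust options, and Irak2 was the 1 gene with an unadjusted p under 0.05. Of all 13602 tested genes, 1.95% passed, 0.61% higher and 1.34% lower. In 4 of the 5 both CD4-Vα14Tg arrays lay below both WT arrays, an arrangement found in that direction for 23.4% of tested genes and in either direction for 39.1%. This count rests in part on very small gaps: the nearest arrays read 7.22 and 7.221 for Tollip and 8.048 and 8.062 for Myd88. The median log2 difference of the 5 was -0.041, against -0.022 for all tested genes. The 5 members and Irak3 passed the expression filter on all 4 arrays, and the 95% intervals of Irak1, Myd88, Tollip and Traf6 span 0 and leave room for differences of up to 0.48 on the log2 scale.

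The wider pathway was read through 98 genes in lists of receptors, ligands, adaptors, downstream enzymes, brakes and NF-kB targets. Of these, 93 were measured, 73 passed the expression filter, and 6 passed limma's test: Tlr1 and Tlr12 were higher, and Il1r1, Il18rap, Pik3ap1 and Ccl3 were lower in CD4-Vα14Tg cells. That is 8.22% of the 73, beside 1.95% of all tested genes. The lists were chosen with earlier results of these data known, so these shares are a description and no test. Of the 73, 2 passed the filter in 1 genotype alone, Il1r1 in WT and Sarm1 in CD4-Vα14Tg. Among genes above it on at least 1 array of each genotype, 5 of 71 pathway genes were called, or 7.04%, beside 1.81% of 13407 genes.

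**Figure D2:**
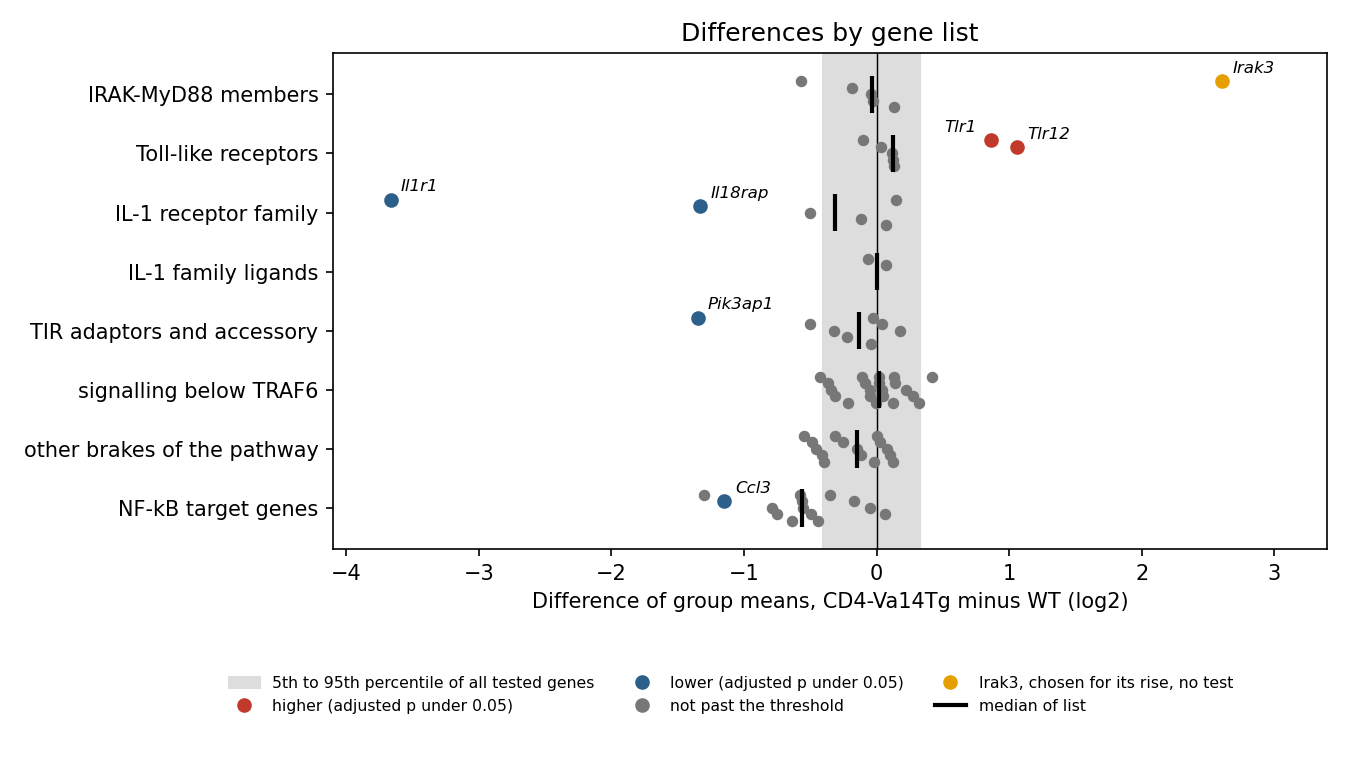
Log2 difference between group means, CD4-Vα14Tg minus WT, of each tested gene in the member list and the 7 pathway lists, with black bars for list medians and grey shading from -0.40 to 0.33, the range from the 5th to the 95th percentile of all tested genes. Points are offset vertically only to keep them apart. Irak3 and Il1r1 lie far to opposite sides, and the NF-kB targets sit mostly left of 0.

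Toll-like receptor genes gave 2 rises and 0 falls among 7 tested, and 5 of 12 were too dim to test. The share called was 28.6%, beside 1.95% of all tested genes. As for the lists together, such shares are a description and no test. Tlr12, a receptor for protozoan profilin in mice, read 5.94 and 6.19 on the CD4-Vα14Tg arrays and 4.99 and 5.02 on the WT arrays, a 2.08-fold rise (limma adjusted p = 0.0108). Tlr1, which pairs with TLR2 to bind bacterial lipopeptides, read 7.96 and 8.32 against 7.26 and 7.29, a 1.82-fold rise (limma adjusted p = 0.0378). The groups did not overlap for either gene. The Tlr1 call was lost without WT replicate 1, CD4-Vα14Tg replicate 2 or WT replicate 2 (limma adjusted p = 0.111, 0.120 and 0.117), and with no expression filter (0.0520). Tlr9, a sensor of CpG DNA, and Tlr5, the flagellin receptor, differed by 0.13 and -0.11 on the log2 scale and did not pass (limma adjusted p = 0.803 and 0.888). Over the 7 genes the median difference was 0.12, and it was 0.43 without CD4-Vα14Tg replicate 1 and 0.0085 without CD4-Vα14Tg replicate 2. Tlr4, the endotoxin receptor, was among the 5 dim genes, and its co-receptor Cd14 was dim too.

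Of 6 tested receptor genes of the IL-1 family, 2 were called lower (33.3%, beside 1.34% of all tested genes), 0 higher and 4 did not pass. Il1r1, the signalling receptor for IL-1, read 4.33 and 4.06 on the CD4-Vα14Tg arrays and 7.60 and 8.13 on the WT arrays, a log2 difference of -3.67. It passed the filter through the WT arrays alone, so it had to differ to be tested, its call is no support and its difference is set against a dim level. Il18rap, the chain that completes the IL-18 receptor, read 8.06 and 8.23 against 9.35 and 9.61, a 2.52-fold fall (limma adjusted p = 0.00632). Its partner Il18r1 read 9.54 and 10.07 against 10.12 and 10.49. The Il18r1 groups did not overlap, but their nearest arrays, at 10.07 and 10.12, lay close. The log2 difference of -0.50 (interval -0.99 to -0.018) did not pass (limma adjusted p = 0.405). With 1 array left out it ranged from -0.77 to -0.24, the smallest being the value with CD4-Vα14Tg replicate 1 removed. Il1rap, the accessory chain shared by the IL-1 and IL-33 receptors, had a log2 difference of 0.15 (limma adjusted p = 0.797). Il1rl1, the IL-33 receptor, was not analysed here. Il1r1 marks the IL-17-producing subset and Il18rap is abundant in the interferon-γ-producing subset, and in bulk RNA fewer cells of a type and less RNA per cell cannot be told apart.

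The ligand genes Il1a, Il1b, Il18 and Il33 were below the filter. Il18bp, the secreted IL-18 antagonist, had a log2 difference of -0.064 and Il1rn, the IL-1 receptor antagonist, 0.070 (limma adjusted p = 0.970 and 0.937), with overlapping groups for both.

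Of 8 tested adaptors and accessory genes, 1 fell (12.5%, beside 1.34% of all tested genes) and 0 rose, and 3 were dim. Pik3ap1, which encodes BCAP, a TIR-containing adaptor that links Toll-like receptors to PI3 kinase, read 8.0 and 7.88 on the CD4-Vα14Tg arrays and 9.25 and 9.33 on the WT arrays. The groups lay well apart, at 2.55-fold (limma adjusted p = 0.00326). Tirap, the bridge between MyD88 and membrane receptors, and Unc93b1, which carries nucleic acid sensors to endosomes, differed by -0.50 and -0.32 on the log2 scale and did not pass (limma adjusted p = 0.329 and 0.313). Tirap was at -0.25 without CD4-Vα14Tg replicate 1 and at -0.75 without replicate 2 of that genotype. Sarm1, a TIR protein that degrades NAD, differed by 0.18 (limma adjusted p = 0.674). Sarm1 passed the filter through the CD4-Vα14Tg arrays alone, so its difference is set against a dim level in WT. Over the 8 genes the median difference was -0.13.

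**Figure D3:**
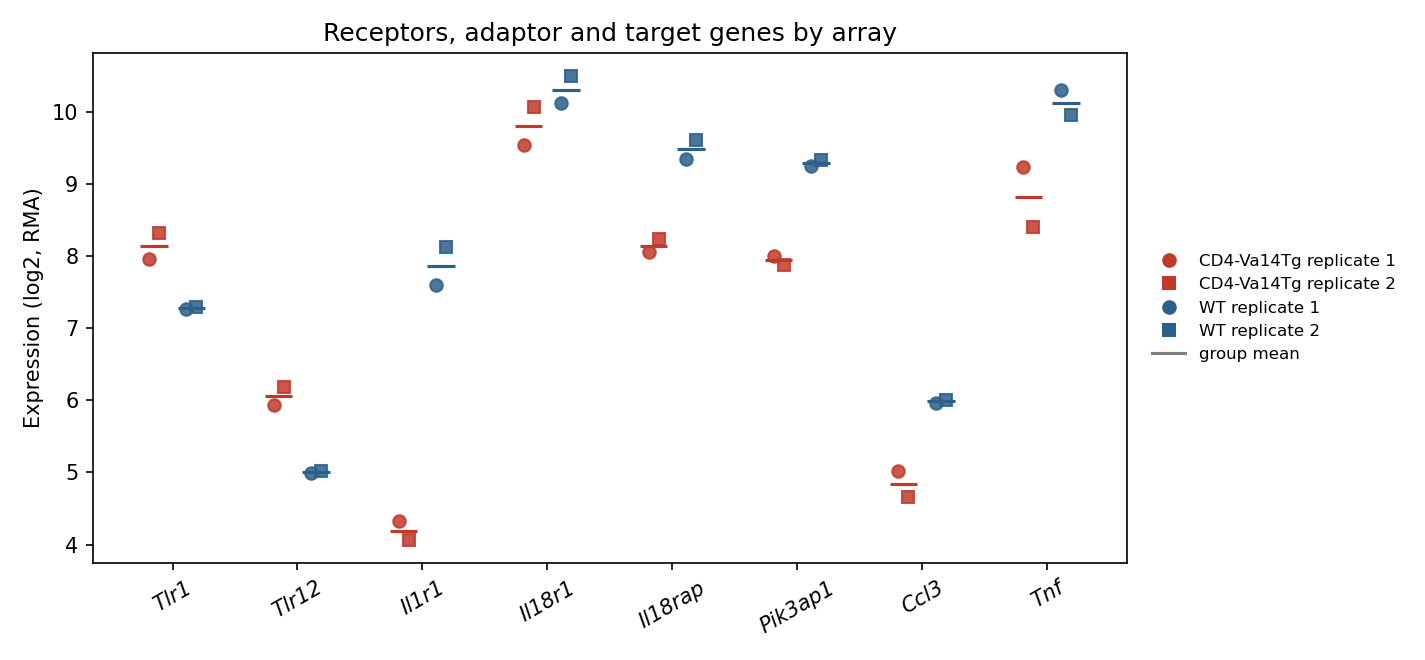
Log2 expression on each array for the 6 pathway genes past the threshold and for Il18r1 and Tnf, which did not pass, with red for CD4-Vα14Tg, blue for WT, circles for replicate 1, squares for replicate 2 and lines for group means. Il1r1 reads 7.60 and 8.13 in WT and 4.33 and 4.06 in CD4-Vα14Tg, while the 2 Il18r1 groups come close at 10.07 and 10.12.

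Below TRAF6, 0 of 21 tested genes were called by limma, 2 (9.52%) reached an unadjusted p under 0.05 beside 11.7% of all tested genes, and the median log2 difference was 0.015. Map2k6, a kinase of the p38 branch, and Mapk8, which encodes JNK1, differed by 0.32 and 0.42 on the log2 scale (limma adjusted p = 0.324 and 0.446). Mapk8 was at 0.15 without CD4-Vα14Tg replicate 1 and at 0.69 without replicate 2 of that genotype. Ube2v1, the partner of the K63 ubiquitin-conjugating enzyme, had -0.31 and Irf7, an interferon regulatory factor that MyD88 engages, had 0.27 (limma adjusted p = 0.416 and 0.445). Map3k7, which encodes TAK1, read 8.07 and 7.95 against 8.05 and 7.94 with overlapping groups.

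Among brakes other than Irak3, no rise was called. Of 15 tested, 0 were called by limma in either direction, 4 (26.7%) reached an unadjusted p under 0.05 beside 11.7% of all tested genes, and the median log2 difference was -0.15. The 4 had negative differences. Zc3h12a, which encodes the mRNA-degrading enzyme Regnase-1, read 7.80 and 7.81 against 8.37 and 8.34, a log2 difference of -0.55 with little spread within each genotype (limma adjusted p = 0.0694, and 0.0492 with the stricter expression filter). Socs1, a suppressor of cytokine signalling, Dusp1, a MAP kinase phosphatase and immediate early gene, and Ptpn6, the phosphatase SHP-1, differed by -0.49, -0.46 and -0.40 on the log2 scale (limma adjusted p = 0.143, 0.311 and 0.236). Dusp1 ran from -0.63 to -0.28 with 1 array left out.

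Among NF-kB target genes 1 of 14 was called lower (7.14%, beside 1.34% of all tested genes) and 0 higher, while most differences were negative. Of 20 measured targets, 6 were too dim to test. A negative difference was found in 13 of the 14 tested, with a median log2 difference of -0.56. Of all tested genes, 55.9% were negative and their median was -0.022. With no expression filter, 15 of the 20 targets were negative, 5 were positive and the median was -0.40. An unadjusted p under 0.05 was found in 10 of the 14, against 11.7% of all tested genes. The 14 genes also moved together within a genotype. All but Bcl3 read higher on CD4-Vα14Tg replicate 1 than on replicate 2, such as Rel at 10.682 and 9.596. Bcl3 read 6.245 and 6.493. The 14 genes are therefore not independent, and the counts of negative signs and of small p-values are a description and no test. Ccl3, a chemokine of activated lymphocytes, passed, reading 5.02 and 4.66 on the CD4-Vα14Tg arrays and 5.97 and 6.01 on the WT arrays. It was 2.22-fold lower (limma adjusted p = 0.0122). On CD4-Vα14Tg replicate 2 it lay just below the filter's cutoff of 4.68, so the fold is set against a level near the floor. Tnf, the cytokine gene, read 9.23 and 8.41 against 10.30 and 9.95. The difference of -1.30 did not pass (limma adjusted p = 0.0636), and it was -1.72 without CD4-Vα14Tg replicate 1, where it did (0.0115), and -0.89 without CD4-Vα14Tg replicate 2, where it did not (0.103). Ier3, a stress response and immediate early gene, had -0.75 (limma adjusted p = 0.0503) and Nfkbid, an atypical IκB of lymphocytes, -0.58 (0.0678). These calls depend on the setting: the stricter filter, which left 13 of these genes, called Tnf, Ier3 and Nfkbid too (limma adjusted p = 0.0421, 0.0332 and 0.0479), and the trend and robust options called 4 of the 14. With 1 array left out, the list median ran from -0.68 to -0.52 and the number of negative genes from 11 to 14. The list holds immediate early genes that also respond to TCR signals and to handling of cells, and their part in the shift was not tested.

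Gene models, small RNAs and olfactory receptors were skipped in the search for profiles like that of Irak3. The 5 nearest genes left were Moxd1, Syne1, Igfbp4, Itga4 and Themis, and 2 skipped genes lay nearer than Themis. The measure was the root-mean-square distance between profiles, each centred on its own mean, so a small distance means a like-sized difference on the same arrays. The distances were 0.068 for Moxd1, 0.14 for Syne1, 0.33 for Igfbp4, 0.38 for Itga4 and 0.49 for Themis on the log2 scale. With 4 arrays in 2 groups, this likeness mainly picks the next largest rises. Moxd1, a monooxygenase-like gene, read 6.75 and 6.70 on the CD4-Vα14Tg arrays and 4.17 and 4.27 on the WT arrays, and unlike Irak3 it was below the filter in WT cells. Syne1, the gene of the nuclear envelope protein nesprin-1, read 10.74 on both CD4-Vα14Tg arrays and 8.18 and 8.51 on the WT arrays. Themis, a protein of TCR signalling in thymocytes, read 8.34 and 8.43 against 6.50 and 6.93.

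**Figure D4:**
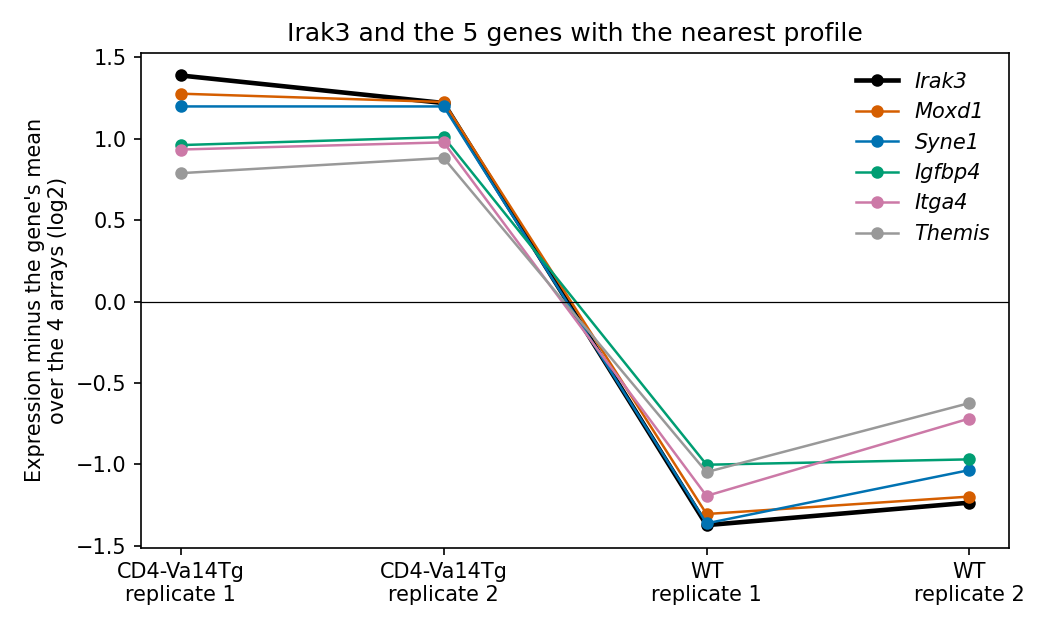
Expression of Irak3 (black) and of the 5 genes nearest to it after the skips, each minus its own mean over the 4 arrays (log2), by array. Irak3 and Moxd1 nearly coincide, at a distance of 0.068, while Themis, at 0.49, moves less between genotypes.

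Because Irak3 is abundant in myeloid cells, markers of other cells were read on the same arrays. Of 9 measured macrophage and monocyte markers, 7 lay below the filter on all 4 arrays, among them Csf1r, Lyz2, Adgre1 and Cd14. Their summed level, in linear units, was 284 to 288 in CD4-Vα14Tg and 298 to 304 in WT, with Cd68, which other cells also express, as its largest part. The part of such cells in the Irak3 difference was not tested. Itgam, the integrin αM that NK and some T cells also carry, read higher by 0.67 on the log2 scale (limma adjusted p = 0.0438), but leaving out whichever of the 4 arrays ended that call (0.0842 to 0.206). Summed neutrophil and B cell markers overlapped between genotypes, at 158 to 159 against 147 to 183 and at 167 against 154 to 191. Of the tested markers in these sums, Csf3r overlapped, but Cd79b, Cd22 and Mmp9 did not. Their log2 differences went both ways, at 0.48, -0.64 and -0.675, and did not pass (limma adjusted p = 0.124, 0.0785 and 0.126). Summed dendritic cell markers were 1632 to 1757 against 1861 to 2364, most of it from Cd209a. Cd209a read 10.64 and 10.53 on the CD4-Vα14Tg arrays and 11.10 and 10.73 on the WT arrays. Zbtb46 and Batf3 were also above the filter on all 4 arrays, and the part of such cells was not tested. The sum of 8 thymocyte and naive T cell markers moved with Irak3, at 2491 to 2585 in CD4-Vα14Tg and 1296 to 1400 in WT. It moved through Ccr7 and Lef1, which rose by 1.55 and 0.84 on the log2 scale (limma adjusted p = 0.00281 and 0.0172). The Lef1 call was lost without 3 of the 4 arrays. Of this list, Rag2, Dntt, Cd24a and Cd8a were below the filter, but Ptcra and Cd8b1 were above it on all 4 arrays. Ptcra read 5.61 and 6.14 on the CD4-Vα14Tg arrays and 5.82 and 5.69 on the WT arrays. Cd8b1 read 5.24 and 5.52 against 5.40 and 5.52. The groups overlapped for both genes, and neither passed (limma adjusted p = 0.921 for Ptcra, 0.929 for Cd8b1). The part of the cells behind this sum in the Irak3 difference was not tested. All 11 measured iNKT and T cell markers were above the filter on all 4 arrays, including Zbtb16, the gene of PLZF. Levels within this list moved too. Il2rb, a chain of the IL-2 and IL-15 receptors, was called lower, with a log2 difference of -0.80 (limma adjusted p = 0.0427, 0.0575 with no filter, 0.0730 with quantile normalization, and 0.0591 to 0.179 with 1 array left out), and Slamf6, a SLAM receptor, differed by 0.73 with groups that did not overlap (limma adjusted p = 0.0603).

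**Figure D5:**
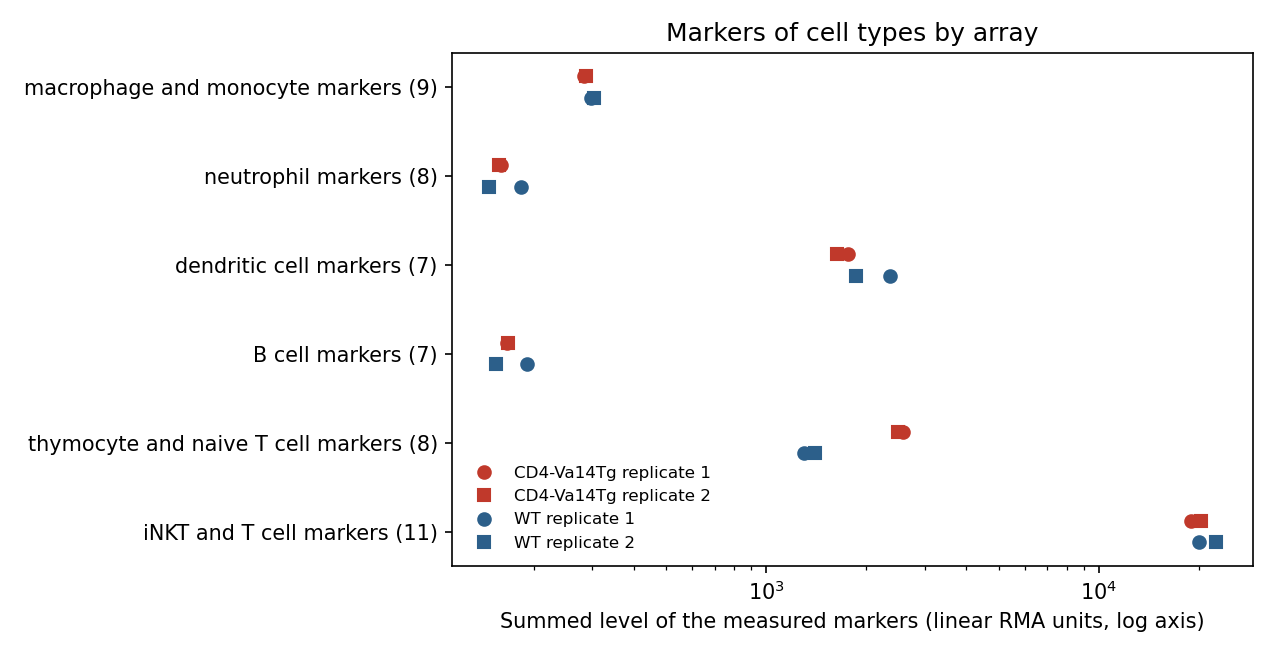
Summed level of the measured markers of each cell type on each array (linear RMA units on a log axis, number of markers in parentheses), with red for CD4-Vα14Tg, blue for WT, circles for replicate 1 and squares for replicate 2. The macrophage and monocyte sum is 284 to 288 in CD4-Vα14Tg and 298 to 304 in WT, and the thymocyte and naive T cell sum is higher in CD4-Vα14Tg.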

How the data were processed

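RNA of iNKT cells was measured on 4 Affymetrix whole-transcript arrays. The deposited values are log2, 1 per probe set and array, made by the authors with RMA and Affymetrix Power Tools, per the submitters' processing notes. Which versions, options and build were used was not given in the sources used here. Array medians were 5.04 to 5.07. Quantile normalization within RMA hides shifts of total RNA, and levels near background understate folds. Per the labels' protocols, RNA came from frozen tissue, and sorting is not stated.

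Of 41345 probe sets, 23521 had 1 symbol in the platform annotation and named 22180 genes. The probe set with the highest mean stood for a gene. Genes at or above the 40th percentile of named probe sets on at least 2 arrays were tested (13602). The test of CD4-Vα14Tg minus WT was limma's (version 3.58.1 under R 4.3.3, functions lmFit and eBayes, two-sided, Benjamini-Hochberg over all tested genes, threshold 0.05), and each ± is an SD of 2 arrays. The fit was tested on simulated data. Plots used matplotlib 3.10.9 in Python 3.11.15. Promoter windows came from RefSeq, where all 7 members matched. No scanner files were used.

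The members and lists were chosen with earlier results of these data known. Of each pathway list, all genes past the threshold and others up to 4 by absolute moderated t were named. The 5 genes nearest to Irak3 skipped gene models, small RNAs and olfactory receptors. Genes named beyond this rule (Tlr4, Map3k7 and single markers) were chosen after their values were seen. Alternatives were no filter, a 60th percentile filter, quantile normalization, median centring, the mean of probe sets, trend and robust options, each array left out, and a replicate block.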

Additional observations from a re-analysis of the deposited data

How the results depend on the processing

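The Irak3 difference stayed within 2.52 to 2.69 under all 11 alternatives. Irak1 and Irak2 kept a negative sign in all 11, Irak2 between -0.69 and -0.44. With the replicate number as a block (replicate block), Irak2 passed at -0.57 (limma adjusted p = 0.0395), 674 genes were called in place of 265, and 15 pathway genes in place of 6, the 6 included. Beside Irak2, the block also called Il18r1, Zc3h12a, Tnf, Ier3 and Nfkbid (limma adjusted p = 0.0496, 0.0314, 0.00158, 0.00788 and 0.0300), and 8 of 14 NF-kB targets in all. The labels do not say what a replicate number shares, and the deviations of same-numbered arrays correlated at 0.26 over 13602 genes with only 2 pairs, so the block stands as an alternative only. The stricter filter gave 10 pathway genes, with fewer genes tested. With 1 array left out, calls ran from 166 to 221 over all genes (169 when CD4-Vα14Tg replicate 1 was omitted, and 166 when either replicate 2 was) and from 5 to 7 in the pathway lists. In these fits a lone array is assumed to vary like the other group. Some small differences changed sign. With median centring, which moves the median of all genes from -0.022 to 0.020, Myd88 was 0.00075 and Tollip 0.016. Without CD4-Vα14Tg replicate 1, Traf6 was -0.0095 (highest value with 1 array left out 0.27) and Il18bp 0.22 (lowest -0.34). Il18bp was 0.038 without WT replicate 2, Il1rn was -0.0195 without WT replicate 1 (highest 0.16) and Tlr5 was 0.0085 without CD4-Vα14Tg replicate 2 (lowest -0.22). The cause of these changes was not tested. Tlr12, Il18rap, Pik3ap1 and Ccl3 kept their calls under all 11 alternatives. With 2 arrays a group, the number of arrays limits the precision.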
